A study of Mus musculus with 6 samples.

Results

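Integrins are cell surface receptors for extracellular matrix, and focal adhesions are the protein assemblies that tie them to the actin cytoskeleton. The genes described here were chosen by symbol. They comprise the 25 integrin alpha and beta subunit genes other than Itga8, and 14 genes of focal adhesion adaptors and kinases (Tln1, Tln2, Vcl, Zyx, Ptk2, Pxn, Ilk, Parva, Parvb, Lims1, Lims2, Fermt2, Tns1 and Tns3). These 39 genes were taken from 48397 gene symbols in the count files, and 38 of them were among the 16198 genes with enough reads to test. Itgad, a leukocyte alpha subunit gene, had 0 reads in each of the 6 libraries, which allows a level of up to 0.168 CPM (counts scaled to library size) at a limit of 3 reads in the shallowest library. Itgae and Itgb6 were above the low-count filter in all 3 libraries of the 5E1 group but in only 2 and 1 libraries of the IgG group, so a higher level in 5E1 was part of how they came to be tested.

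The libraries were made from lungs of PdgfraEGFP/+ mouse pups, in which a green fluorescent reporter marks cells that use the Pdgfra gene. Both groups carried this allele. Timed pregnant dams were injected intraperitoneally at E18.5 (embryonic day) with the hedgehog-blocking antibody 5E1 or with control IgG, live EGFP+ cells were sorted from the pups at postnatal day 8, and bulk RNA was sequenced in 3 libraries per group. The sort limits the data to cells that were EGFP+ at that age. The labels name no untreated group. Whether a library came from its own pup, a pool or a litter is not stated, and p-values therefore cover only library-to-library spread, which may be technical. Gene counts summed to 16958433 to 28405457 reads per IgG library and 18857199 to 34318583 per 5E1 library, and 1 library of each group had almost no reads of Y-linked genes (2 reads each over Ddx3y, Eif2s3y, Kdm5d and Uty).

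The sorted population was checked against marker lists. Pdgfra itself was present in every library, at 413 to 556 CPM in IgG and 574 to 720.5 CPM in 5E1. Summed levels of 8 fibroblast genes led by Col3a1 and Col1a1 ranged from 45434 to 63940.3 CPM in IgG and 57647 to 103607 CPM in 5E1. The other marker lists gave smaller sums, but sums of unlike lists do not rank cell types. Whether these markers were read from other cells or from the sorted EGFP+ cells themselves was not tested. The 12 smooth muscle and pericyte markers, led by Acta2 and Tagln, summed to 5175 to 5537 CPM in IgG and 3100.0 to 4269 CPM in 5E1. The 12 epithelial markers, led by Scgb1a1 and Sftpc, summed to 438 to 705 and 638 to 1817 CPM, the 10 endothelial markers, led by Ramp2 and Tek, to 164 to 193 and 184 to 362 CPM, and the 6 mesothelial markers, led by Upk1b and Msln, to 47.4 to 88.6 and 127 to 248 CPM. For epithelial, endothelial and mesothelial markers, 5E1 replicate 2 was the highest of the 6 libraries.

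Each integrin is a pair of 1 alpha and 1 beta subunit, and the pair sets which matrix protein is bound. Talins and kindlins attach to the beta tail and switch the receptor to its active form. Vinculin, zyxin and tensins link or strengthen the connection to actin. A scaffold of integrin-linked kinase, a PINCH protein and a parvin (the IPP complex) and the pair of focal adhesion kinase and paxillin pass on signals. In the postnatal lung such contacts connect septal fibroblasts and myofibroblasts to elastin-rich matrix while alveoli form.

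Of the 38 genes tested, 10 were higher in 5E1, 8 were lower and 20 were not called, at an edgeR adjusted p under 0.05. Among all 16198 genes tested, 12.1% were called higher, 11.1% lower and 23.2% in either direction. Fewer cells of a type and less RNA per cell cannot be told apart in these bulk libraries. The median log2 fold change (5E1 over IgG) was 0.07 over the 38 genes and 0.00 over all genes tested. When libraries were scaled by their totals only, which moved the median of all genes to -0.14, the split of the 38 was 8 higher and 10 lower and that of all genes tested 1312 higher and 3274 lower. With DESeq2 size factors the split of the 38 was 10 higher and 5 lower. For 15 of the genes all 5E1 libraries lay above all IgG libraries, and for 10 they all lay below. The same was true of 20.8% and 21.4% of all genes tested.

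Of 17 genes whose mean over the 6 libraries reached 50 CPM, 7 were lower and 1, Tns1, was higher. Of the 21 tested genes under 50 CPM, 9 were higher and 1, Itgb8, was lower. The boundary of 50 CPM was chosen after the levels were seen. Among all genes tested, 13.4% of those at or above 50 CPM were called lower and 18.1% higher, and of those under it 10.1% were called higher and 10.3% lower. Over 15 other settings (9 with all 6 libraries and 6 that each left out 1 library), the calls of Itga3, Itga9, Itga11, Itgam, Itgb8, Tln2, Tns1 and Lims2 held in every one, and each of the other 10 calls ended in at least 1.

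**Figure D1:**
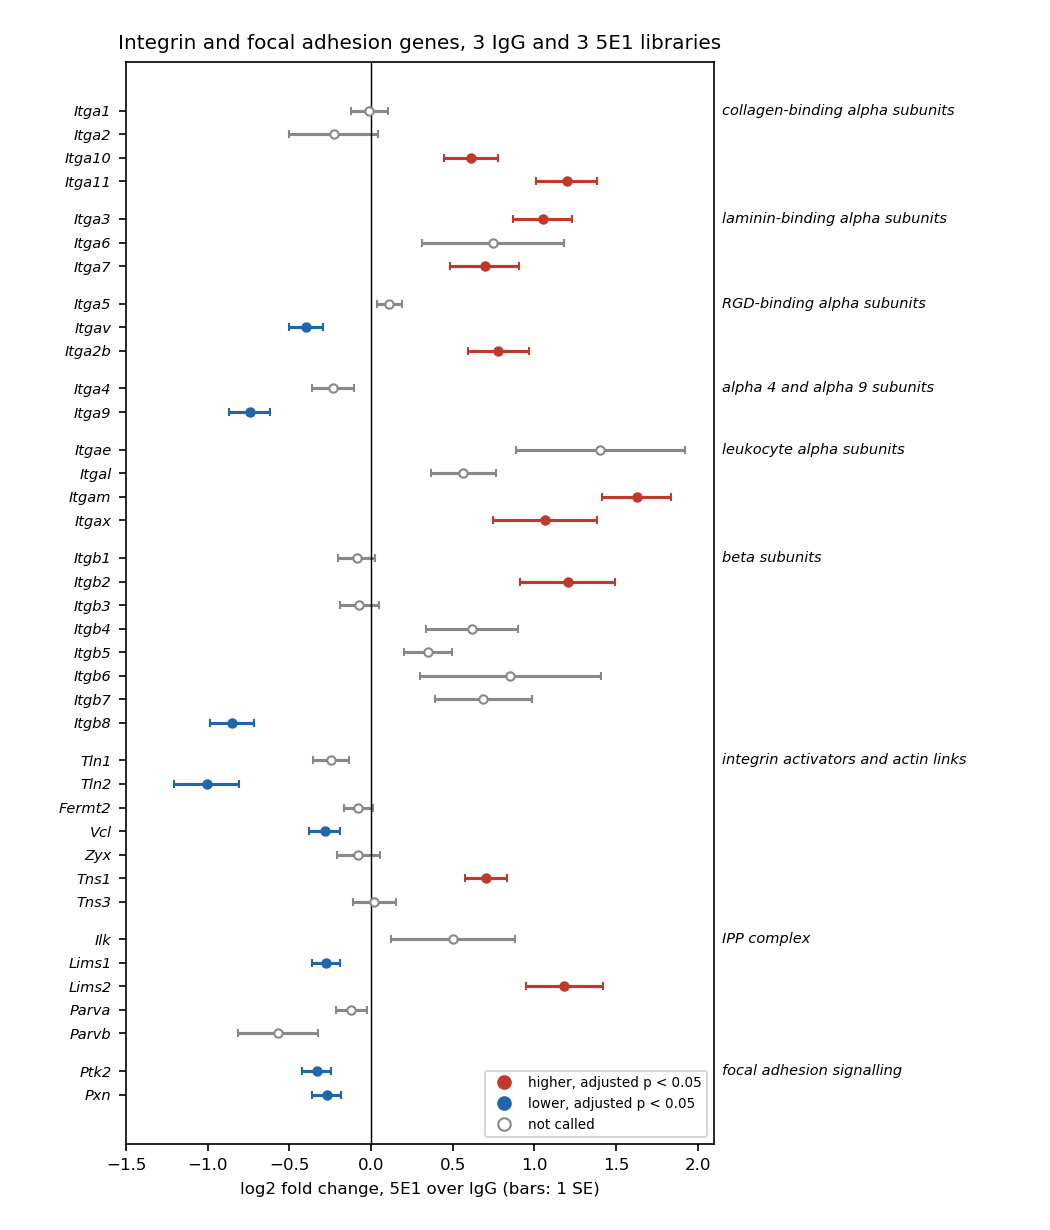
Log2 fold change (5E1 over IgG, horizontal axis) with 1 SE for the 38 tested integrin and focal adhesion genes, grouped by role. Filled red points (10 genes) were called higher, filled blue points (8 genes) lower, and open grey points (20 genes) were not called. The alpha subunit genes spread from -0.74 (Itga9) to 1.63 (Itgam), and the adaptor and kinase genes lie mostly left of 0.

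Levels of different genes were compared as CPM per kilobase of exon. On that scale Itgb1, the beta subunit shared by most matrix receptors, was the highest of the 39 genes, with 460 CPM per kilobase in IgG and 433 in 5E1. It held 90.3% ± 1.25 (SD, n = 3) of the summed level of the 8 beta genes in IgG and 87.7% ± 1.87 in 5E1, and the groups overlapped. Itga9 was the highest alpha gene in both groups, at 73.9 CPM per kilobase in IgG and 44.2 in 5E1, followed by Itga5 (26.8 and 29.0) and Itgav (23.9 and 18.1). Among the 17 alpha genes, Itga9 made up 52.6%, 54.3% and 50.2% of the summed level in IgG replicates 1 to 3 and 40.8%, 35.7% and 39.3% in 5E1 replicates 1 to 3. The groups did not overlap, and the exact two-sided permutation p of 0.1 is the smallest that 3 libraries against 3 can give. The share of Itga5 was higher in every 5E1 library (24.3% to 26.6%) than in any IgG library (17.5% to 20.8%), with the same exact permutation p of 0.1. The summed level of the 17 alpha genes was itself lower in 5E1, with means of 141 CPM per kilobase in IgG and 114 in 5E1. A share can therefore rise without a rise in level. Itgav kept 15.1% to 17.2% in 5E1 against 16.8% to 17.1% in IgG. The 13 least abundant alpha genes together made up 6.67% to 7.73% in IgG and 12.7% to 17.4% in 5E1.

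**Figure D2:**
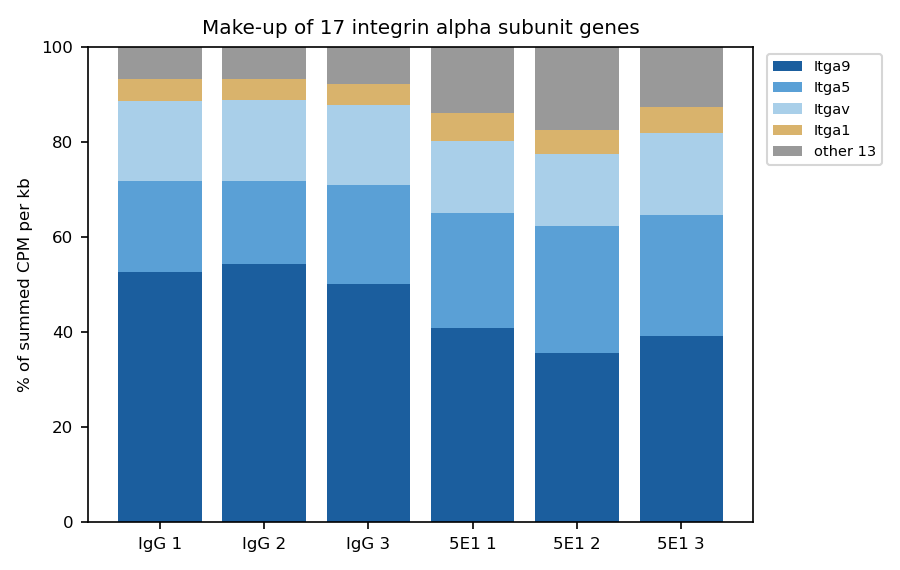
Make-up of the 17 integrin alpha subunit genes in each of the 6 libraries, as a percentage of their summed CPM per kilobase of exon (vertical axis). The dark blue Itga9 segment covers 50.2% to 54.3% of the IgG bars and 35.7% to 40.8% of the 5E1 bars, and the grey segment of the 13 least abundant genes is larger in each 5E1 bar.

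Itga9 and Itgav, both among the abundant alpha subunit genes, fell. Itga9 encodes the partner of the beta 1 subunit in a receptor for tenascin-C and other matrix ligands. Its level was 552, 655 and 499 CPM in IgG replicates 1 to 3 and 376, 301 and 342 CPM in 5E1 replicates 1 to 3. All 5E1 libraries lay below all IgG libraries, with a log2 fold change of -0.74 (SE 0.13) and an edgeR adjusted p of 0.00223. Itgav encodes the alpha subunit of the vitronectin receptor family, which reads the tripeptide RGD in its ligands and includes activators of latent TGF-beta. It measured 247, 287 and 235 CPM in IgG and 194, 179.8 and 209.9 CPM in 5E1. The groups did not overlap and the log2 fold change was -0.40 (SE of 0.10 and edgeR adjusted p = 0.0184), but without IgG replicate 2 the adjusted p was 0.0727. In mm10, Itga9 lies on chromosome 9 (118606690 to 118901003) and Itgav on chromosome 2 (83724397 to 83806916).

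Itga5, the alpha subunit of the main fibronectin receptor, was not called. Its level was 129, 135 and 132 CPM in IgG and 144, 144 and 141 CPM in 5E1, so every 5E1 library was above every IgG library by a small margin (log2 fold change 0.11 with SE 0.08 and edgeR adjusted p = 0.314, and -0.03 when scaled by totals only). Itga4, whose product binds fibronectin and VCAM-1, measured 16.5 to 19.0 CPM in IgG and 13.03 to 16.2 CPM in 5E1 and was not called (log2 fold change -0.23, adjusted p 0.227).

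Of the 4 collagen-binding alpha genes, 2, Itga10 and Itga11, rose from low levels. Itga11, which encodes the fibroblast receptor for fibrillar collagen, measured 4.43, 4.37 and 3.38 CPM in IgG and 9.94, 8.37 and 9.61 CPM in 5E1. All 5E1 libraries lay above all IgG libraries, and the log2 fold change was 1.20 (SE of 0.19 and edgeR adjusted p = 0.00145). Itga10, known from cartilage, measured 6.85, 7.06 and 6.32 CPM in IgG and 12.01, 9.41 and 9.54 CPM in 5E1. Its groups did not overlap either (log2 fold change 0.61 with SE 0.17 and edgeR adjusted p = 0.0225). Leaving out any one IgG replicate or 5E1 replicate 1 took the adjusted p of Itga10 to between 0.0557 and 0.0820, past the threshold, as did scaling by totals only, at 0.0735, and 33.5% of the exon bases of Itga10 are shared with the gene model Gm42957 on the same strand. Itga1, the most abundant of the 4 per kilobase, measured 116, 132 and 105 CPM in IgG and 132, 102 and 115 CPM in 5E1, overlapping throughout (log2 fold change -0.01, SE 0.11). Itga2, a collagen receptor gene of epithelium and platelets, ranged from 4.56 to 8.57 CPM in IgG and 4.09 to 7.20 CPM in 5E1 and was not called. Itga11 lies on chromosome 9 of mm10 (62677826 to 62783982).

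Of the 3 laminin-binding alpha genes, all at low levels, Itga3 and Itga7 rose and Itga6 was not called. Itga3, known as a laminin receptor gene of epithelia, measured 6.47, 7.90 and 8.10 CPM in IgG and 13.3, 19.2 and 13.8 CPM in 5E1. It was highest in 5E1 replicate 2, all 5E1 libraries lay above all IgG libraries, and the log2 fold change was 1.05 (SE of 0.18 and edgeR adjusted p = 0.00236). Without 5E1 replicate 2, the library with the largest epithelial marker sum, the log2 fold change of Itga3 was 0.86 (adjusted p 0.00395). Itga7, a laminin receptor gene of muscle, measured 5.35, 4.09 and 3.85 CPM in IgG and 8.53, 6.34 and 6.81 CPM in 5E1 (log2 fold change 0.70 with SE 0.21 and edgeR adjusted p = 0.0359). Its groups did not overlap, but in 6 of the 15 other settings the adjusted p was 0.0533 to 0.127 and the gene was not called.

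Itga6, a laminin receptor gene of endothelium and epithelium, was not called. It measured 6.20, 9.74 and 10.7 CPM in IgG and 11.1, 24.7 and 8.28 CPM in 5E1. Replicate 2 of the 5E1 group stood far above the rest while 5E1 replicates 1 and 3 fell within or near the IgG range, and the log2 fold change of 0.74 (SE of 0.43 and edgeR adjusted p = 0.270) dropped to 0.13 without that library. The same library was highest in the endothelial sum, at 362 CPM against 164 to 221 CPM in the other 5, and in the epithelial sum, at 1817 CPM against 438 to 755 CPM. Of the endothelial markers 1 of 10 was called higher and of the epithelial markers 3 of 12, against 12.1% of all genes tested. No marker of either list was at 0 in all libraries. The part of these markers in the level of Itga6 or Itga3 was not tested.

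Of the leukocyte integrin genes, Itgam, Itgax and Itgb2 rose, Itgal and Itgae were not called, and leukocyte markers were higher in the same libraries. Itgam, the alpha subunit of the complement receptor Mac-1 on neutrophils and macrophages, measured 3.30, 3.14 and 3.59 CPM in IgG and 11.4, 11.97 and 7.73 CPM in 5E1. Its log2 fold change of 1.63 (SE of 0.21 and edgeR adjusted p = 0.000509) was the highest of the 38 genes, and the lowest 5E1 library was above the highest IgG library by more than the range within IgG. In GENCODE, 68.7% of the exon bases of Itgam are shared with the gene model Gm49368 on the same strand, so its count may lack reads that were ambiguous between both. Itgb2, the beta subunit common to leukocyte integrins, measured 2.998, 4.20 and 6.61 CPM in IgG and 12.6, 11.6 and 7.77 CPM in 5E1 (log2 fold change 1.20 with SE 0.29 and edgeR adjusted p = 0.0154, and 0.0630 without IgG replicate 2). All its 5E1 libraries were above the IgG libraries, IgG replicate 3 and 5E1 replicate 3 being the closest.

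Itgax, the alpha subunit gene of dendritic cells and macrophages, measured 2.18, 2.46 and 2.14 CPM in IgG and 3.37, 7.17 and 3.498 CPM in 5E1 (log2 fold change 1.07 with SE 0.32 and edgeR adjusted p = 0.0346). Here 5E1 replicate 2 was the high library, and without it the log2 fold change was 0.61 (adjusted p 0.126). The call of Itgax held in 8 of the 14 other settings that tested it. It also ended when any single IgG replicate was left out. Itgal, the alpha subunit of the lymphocyte integrin LFA-1, measured 4.12 to 5.59 CPM in IgG and 6.15 to 8.22 CPM in 5E1 and was not called (log2 fold change 0.57, adjusted p 0.0637), nor was Itgae, known from tissue-resident T cells and some dendritic cells, at 0.218 to 1.23 and 1.58 to 2.099 CPM (adjusted p 0.0727). DESeq2 called both (Itgal 0.0471, Itgae 0.0437).

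All 8 pan-leukocyte markers, led by Laptm5 and Ptprc, were called higher, and their sum was 39.8 to 47.9 CPM in IgG and 82.1 to 116 CPM in 5E1. All 10 neutrophil markers, led by S100a9 and S100a8, were called higher, with sums of 14.3 to 20.5 and 141 to 226 CPM. In IgG replicates 1 to 3, Camp had 11, 0 and 9 reads and Cxcr2 had 22, 6 and 1. Mmp8 had 11, 6 and 25 reads there and Retnlg 36, 6 and 28. These markers did not pass the low-count filter in every IgG library. A higher level in 5E1 was thus part of how they came to be tested. Of all genes tested, 12.1% were called higher. Of 11 macrophage markers, led by Lyz2 and Ctss, 6 were called higher (95.5 to 124 and 155 to 309.7 CPM). Of 10 lymphocyte markers, led by Cd79a and Ms4a1, 6 were tested and 1 was called higher (3.99 to 5.21 and 5.19 to 10.4 CPM), and none of these 4 lists had a gene at 0 in all libraries. Relative to the pan-leukocyte sum of the same library, Itgam stood at 7.11% to 8.31% in IgG and 9.42% to 11.04% in 5E1, Itgal at 10.4% to 11.7% and 7.04% to 7.49%, Itgb2 at 7.54% to 13.8% and 9.47% to 12.1%, and Itgax at 4.47% to 5.58% and 3.26% to 6.18%. The ratio of Itgam was higher in all 5E1 libraries, that of Itgal was lower in all, and those of Itgb2 and Itgax overlapped between groups. The part of leukocytes in these levels was not tested beyond those ratios.

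**Figure D3:**
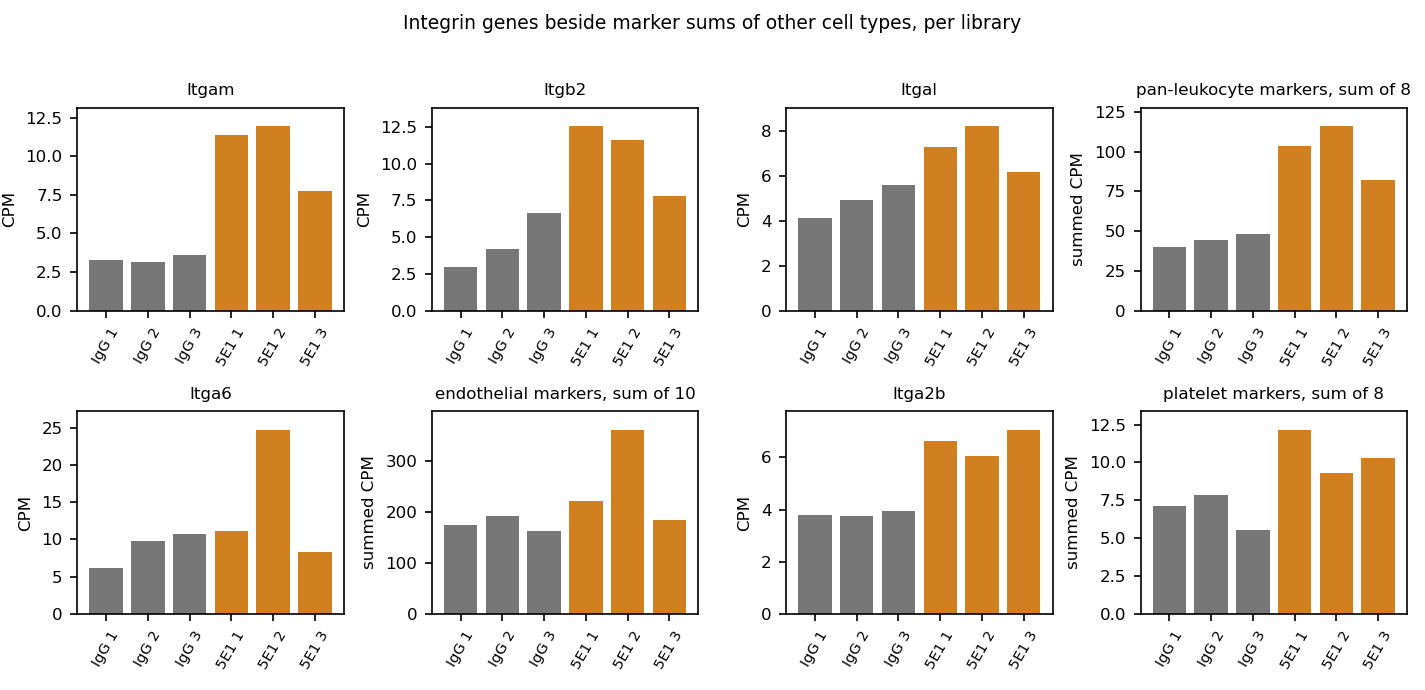
Levels of Itgam, Itgb2, Itgal, Itga6 and Itga2b (CPM) beside the summed CPM of pan-leukocyte, endothelial and platelet markers, 1 bar per library (grey IgG, orange 5E1). The pan-leukocyte sum is 39.8 to 47.9 CPM in the IgG bars and 82.1 to 116 CPM in the 5E1 bars, and the single tall bar of Itga6 (24.7 CPM, 5E1 replicate 2) stands in the same library as the tallest endothelial bar (362 CPM).

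Itga2b, which encodes the alpha subunit of the platelet fibrinogen receptor, measured 3.78, 3.75 and 3.96 CPM in IgG and 6.63, 6.04 and 7.07 CPM in 5E1. The libraries of each group lay close together and the groups did not overlap (log2 fold change 0.78 with SE 0.19 and edgeR adjusted p = 0.0131). Leaving out IgG replicate 1 (adjusted p 0.0553) or 5E1 replicate 3 (0.0573) took the call away. Its partner gene Itgb3, which also pairs with Itgav in mesenchymal cells, was not called, at 20.8 to 25.3 CPM in IgG and 19.8 to 23.9 CPM in 5E1. Of 8 platelet markers, led by Gp1ba and Gp1bb, 4 were tested and 2 were called higher (Pf4 and Ppbp), against 12.1% of all genes tested. Sums of the 8 markers were 5.55 to 7.84 CPM in IgG and 9.32 to 12.2 CPM in 5E1, with no gene at 0 in all libraries. Gp1ba and Gp1bb were not called (log2 fold changes 0.24 and -0.20), and 92.9% of the Gp1bb exon bases are shared with other genes. Ppbp had 10, 4 and 12 reads in IgG replicates 1 to 3 and did not pass the low-count filter in every IgG library. A higher level in 5E1 was thus part of how Ppbp came to be tested. The part of the platelet markers in the level of Itga2b was not tested.

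Among the beta subunit genes 1 rose (Itgb2, above), 1 fell and 6 were not called. Itgb8 encodes the beta subunit that pairs with the Itgav product and is known for activating latent TGF-beta. Its level was 42.5, 44.2 and 31.7 CPM in IgG and 20.7, 24.0 and 20.9 CPM in 5E1. The highest 5E1 library was below the lowest IgG library, and the log2 fold change was -0.85 (SE of 0.13 and edgeR adjusted p = 0.00151). Itgb5, another partner of the Itgav product, measured 154, 126 and 138 CPM in IgG and 182, 138 and 213 CPM in 5E1, which overlapped in 5E1 replicate 2 (log2 fold change 0.35 with SE 0.15 and edgeR adjusted p = 0.114, and 0.00763 without that library). As a share of the summed CPM per kilobase of Itgb8 and Itgb5, Itgb8 made up 8.38% ± 1.63 in IgG and 3.95% ± 1.17 in 5E1 (SD, n = 3 each, exact permutation p 0.1, the smallest possible).

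Itgb1 measured 1812, 2075 and 1742 CPM in IgG and 1712, 1791 and 1792 CPM in 5E1, with overlapping groups and a log2 fold change of -0.09 (SE 0.12). Itgb4, the hemidesmosome subunit gene of epithelium, Itgb6, an epithelial partner gene of Itgav, and Itgb7, a lymphocyte subunit gene, did not exceed 3.59 CPM in any library. Their log2 fold changes were 0.62, 0.85 and 0.69, with edgeR adjusted p of 0.136, 0.292 and 0.121. In mm10, Itgb8 lies on chromosome 12 (119158022 to 119238802).

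Genes linking integrins to actin moved both ways. Tln2, the less abundant of the talin genes, measured 70.1, 73.3 and 64.3 CPM in IgG and 40.3, 23.2 and 40.3 CPM in 5E1. It had the lowest log2 fold change of the 38 genes, -1.01 (SE of 0.20 and edgeR adjusted p = 0.0101), with 5E1 replicate 2 the lowest library. Tln1, the main talin gene of most tissues, measured 614, 646 and 669.9 CPM in IgG and 567, 469 and 593 CPM in 5E1. All 5E1 libraries were below the IgG libraries, but it was not called (log2 fold change -0.24 with SE 0.11 and edgeR adjusted p = 0.139) except when scaled by totals only (0.0168). Tln2 made up 5.44% ± 0.491 of the summed CPM per kilobase of both talin genes in IgG and 3.24% ± 0.584 in 5E1 (SD, n = 3 each, exact permutation p 0.1).

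Vcl, the vinculin gene, measured 257, 282 and 285 CPM in IgG and 235, 207 and 236 CPM in 5E1. The groups did not overlap and the log2 fold change was small, -0.28 (SE of 0.09 and edgeR adjusted p = 0.0482). Leaving out any single library gave an adjusted p of 0.0597 to 0.135, so the call was lost each time, and 25.5% of the exon bases of Vcl are shared with Ap3m1 on the opposite strand. Fermt2, the kindlin gene of mesenchyme, measured 341 to 362 CPM in IgG and 319 to 352 CPM in 5E1 (log2 fold change -0.08). Zyx, the zyxin gene, measured 345 to 473 and 339 to 414 CPM (log2 fold change -0.08), and both overlapped between groups.

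The Vcl promoter is shown because Vcl was called and its promoter, like those of Fermt2 and Itgb6, which were not called, holds a CArG box, the motif read by serum response factor at many genes of the actin cytoskeleton. RefSeq promoters (build GRCm38.p6, 250 bases before to 50 after each start) were found for 26 of the 39 genes, 31 promoters in all, and were searched on both strands. The CArG box was found in 3 of the 31 and in 1.63% of 32851 promoters of all genes. The GLI consensus TGGGTGGTC was found in 0 of the 31 and in 0.253% of all promoters, and the TEAD core GGAATG in 3 of the 31 (Itga10, Itgb1 and Vcl) and in 14.7% of all. A match is a string of letters and not a measured binding site. Only the bases before the start are printed, 5′ to 3′ on the strand of the gene, with the CArG box in capitals. The Vcl stretch is chr14:20929148-20929397 on the plus strand.

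Vcl: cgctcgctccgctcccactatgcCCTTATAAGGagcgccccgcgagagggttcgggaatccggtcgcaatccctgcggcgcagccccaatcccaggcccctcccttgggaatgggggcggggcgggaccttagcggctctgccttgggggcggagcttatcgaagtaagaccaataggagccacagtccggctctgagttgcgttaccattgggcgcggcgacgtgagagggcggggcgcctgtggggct

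The box begins 227 bases before the RefSeq start in Vcl, 204 bases before it in Fermt2 and 50 bases before it in Itgb6.

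Tns1, which encodes the tensin that binds integrin tails in fibrillar adhesions, rose from an already high level. It measured 808, 787 and 947 CPM in IgG and 1179, 1421 and 1538 CPM in 5E1. Every 5E1 library was above every IgG library (log2 fold change 0.70 with SE 0.13 and edgeR adjusted p = 0.00363). Tns3, a related tensin gene, measured 532, 518 and 684 CPM in IgG and 580.0, 523 and 657 CPM in 5E1 and overlapped throughout (log2 fold change 0.02, SE 0.13). Per kilobase, Tns1 made up 50.7% ± 1.33 of both genes in IgG and 62.1% ± 3.42 in 5E1 (SD, n = 3 each, exact permutation p 0.1). Tns1 lies on chromosome 1 of mm10 (73910231 to 74124449) and Tln2 on chromosome 9 (67217087 to 67559703).

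In the IPP complex the genes of the 2 PINCH proteins went in opposite directions. Lims1, the abundant one, measured 387, 412 and 401 CPM in IgG and 321, 331 and 339 CPM in 5E1. The groups did not overlap, with a log2 fold change of -0.28 (SE of 0.09 and edgeR adjusted p = 0.0422), but no call remained once any single library was left out (adjusted p 0.0555 to 0.115). Lims2 measured 3.58, 2.35 and 3.88 CPM in IgG and 6.41, 7.20 and 8.87 CPM in 5E1, again without overlap (log2 fold change 1.18 with SE 0.24 and edgeR adjusted p = 0.00515). Lims2 made up 1.29% ± 0.340 of the summed CPM per kilobase of both genes in IgG and 3.49% ± 0.472 in 5E1 (SD, n = 3 each, exact permutation p 0.1), and 6.14% of its exon bases are shared with Gpr17 on the opposite strand.

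Of the parvin genes, Parva measured 367 to 385 CPM in IgG and 322 to 375 CPM in 5E1 (log2 fold change -0.12, edgeR adjusted p 0.395). Parvb measured 8.82, 15.3 and 11.5 CPM in IgG and 7.23, 10.4 and 6.19 CPM in 5E1 (log2 fold change -0.57, adjusted p 0.122, and 0.0275 without 5E1 replicate 2). The groups overlapped for both. Parvb made up 6.76% ± 1.76 of the summed CPM per kilobase of both genes in IgG and 5.07% ± 1.70 in 5E1 (SD, n = 3 each, exact permutation p 0.3), also with overlap. Ilk, the integrin-linked kinase gene, had only 22 to 43 reads per library (0.799 to 1.36 CPM in IgG, 1.28 to 2.173 CPM in 5E1), while its complex partners Lims1 and Parva had at least 321 CPM in every library. In GENCODE, 89.7% of the exon bases of Ilk are shared with Taf10 and Rrp8 on the opposite strand. Reads ambiguous between genes, 1.94% to 2.66% of a library, were counted apart from genes, so the low value of Ilk was not read as its expression.

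The 2 signalling genes were slightly lower in 5E1. Ptk2, the focal adhesion kinase gene, measured 141, 160.0 and 161 CPM in IgG and 125, 115 and 128 CPM in 5E1 (log2 fold change -0.33 with SE 0.09 and edgeR adjusted p = 0.0218). Pxn, the paxillin gene, measured 167, 197 and 183 CPM in IgG and 156, 146 and 152 CPM in 5E1 (log2 fold change -0.27 with SE 0.09 and edgeR adjusted p = 0.0471). All 5E1 libraries lay below all IgG libraries for both genes. Ptk2 lost its call when IgG replicate 2 (adjusted p 0.0740) or 3 (0.0765) was left out, and Pxn lost it when any single library was (0.0570 to 0.155). Of the 12 smooth muscle and pericyte markers, 6 were called lower (Acta2, Tagln, Myh11, Actg2, Cnn1 and Mcam), 1 higher (Pdgfrb) and 5 were not called (Des, Rgs5, Cspg4, Notch3 and Higd1b), with no marker at 0 in all libraries. Of all genes tested, 11.1% were called lower and 12.1% higher. All of the markers but Acta2 and Tagln are named here after their values were seen. The part of these markers' cells in the lower levels of Itga9, Itgav, Itgb8, Tln2, Vcl, Lims1, Ptk2 and Pxn was not tested.

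**Figure D4:**
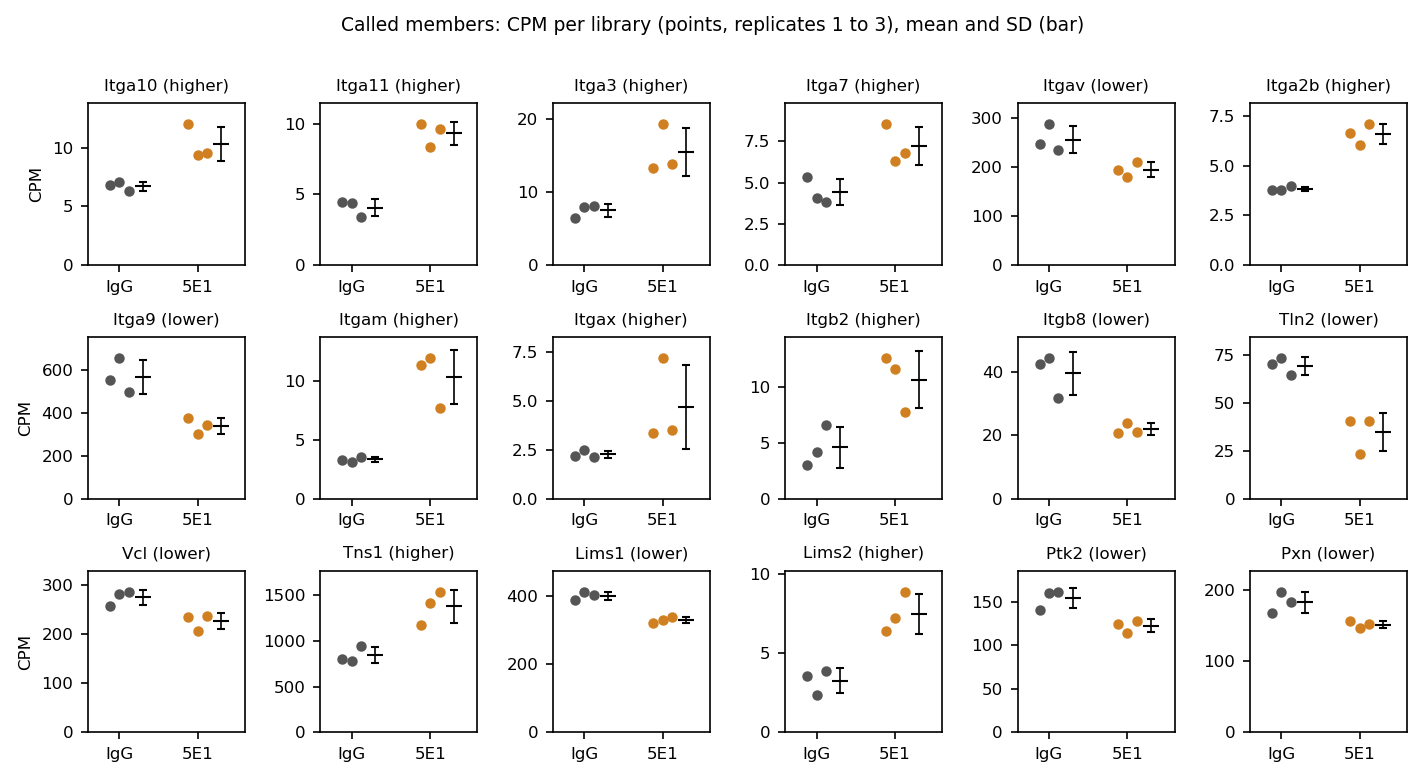
CPM in each library (points, replicates 1 to 3 from left to right; vertical axes from 0) with mean and SD (bars) for the 18 called genes. No gene shown has overlapping groups; for Pxn, for example, the highest 5E1 library is at 156 CPM and the lowest IgG library at 167 CPM, and for Itgam the lowest 5E1 library is at 7.73 CPM and the highest IgG library at 3.59 CPM.

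The rest of the focal adhesion pathway was represented by 62 other genes, of which 60 were tested, 6 were called higher and 16 lower, with a median log2 fold change of -0.06. Of all genes tested, 12.1% were called higher and 11.1% lower. Actn1, which encodes the actin crosslinker alpha-actinin-1, measured 428, 448 and 439 CPM in IgG and 245, 187 and 194 CPM in 5E1, a log2 fold change of -1.07 (SE of 0.11 and edgeR adjusted p = 0.000169). Its groups were far apart. Nedd9, a docking protein gene downstream of focal adhesion kinase, fell by 0.67 on the log2 scale, Fhl2 and Tgfb1i1 (Hic-5), LIM proteins of focal adhesions, by 0.75 and 0.59, Palld, the palladin gene, by 0.67, and Csk, a negative regulator gene of Src, by 0.55. Arhgef6, which encodes a Rac and Cdc42 exchange factor, rose from 20.4 to 22.1 CPM in IgG to 47.0 to 59.3 CPM in 5E1 (log2 fold change 1.34 with SE 0.11 and edgeR adjusted p = 3.95e-05). Apbb1ip, which encodes RIAM, a talin-recruiting adaptor also abundant in leukocytes, rose by a log2 fold change of 1.30. Tns2, another tensin gene, was higher as well (0.59, edgeR adjusted p 0.00311, chosen after its value was seen), from 98.3 to 115 CPM in IgG to 144 to 185 CPM in 5E1.

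Of 45 integrin ligand genes 43 were tested, 10 were called higher and 6 lower (7 and 7 when scaled by totals only), and the median log2 fold change was 0.29. The shares of all genes tested were 12.1% higher and 11.1% lower. Postn, whose product periostin binds receptors containing the Itgav product, measured 1684, 1507 and 1475 CPM in IgG and 3573, 3359.8 and 4203 CPM in 5E1, a log2 fold change of 1.25 (SE of 0.13 and edgeR adjusted p = 0.000161). Nov, a matricellular ligand gene, rose by 1.06 and Thbs1, the thrombospondin-1 gene, by 0.97. Lama1 and Lama5, genes of laminin alpha chains, fell by 3.87 and 1.34 on the log2 scale, from means of 10.7 and 700 CPM in IgG. The other listed laminin genes were not called. Their log2 fold changes were 0.31 (Lama2), 0.54 (Lama3), 0.25 (Lama4), -0.14 (Lamb1), 0.03 (Lamb2) and -0.15 (Lamc1), named after their values were seen. Among the laminin-binding subunit genes, Itga3 and Itga7 rose. Tnc, the gene of the Itga9 ligand tenascin-C, fell in every 5E1 library, from 4336, 5081 and 4105 CPM in IgG to 2794, 2127 and 2368 CPM (log2 fold change -0.89 with SE 0.15 and edgeR adjusted p = 0.00183). Tgfbi, another integrin ligand gene of the matrix, fell by 1.26. Ibsp, an RGD protein gene of bone, had 206, 173 and 127 reads in IgG (4.61 to 9.69 CPM) and 2, 8 and 1 in 5E1. The 5E1 counts were below the low-count filter in every library, so a higher level in IgG was part of how Ibsp came to be tested. In 5E1 replicates 1 and 3 they were also under the limit of 3 reads. Vcam1 and Icam1, genes of cell surface ligands of the Itga4 product and of leukocyte integrins, also rose (1.08 and 1.07, edgeR adjusted p 0.00312 and 0.00417, chosen after their values were seen). Fn1, the fibronectin gene, measured 4700 to 5712 CPM in IgG and 5982 to 8072 CPM in 5E1, without overlap, and was not called (log2 fold change 0.40, adjusted p 0.0980, also named after its value was seen).

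Set side by side by receptor pair, the log2 fold changes of alpha and beta genes had the same direction in some pairs and not in others. For the tenascin receptor, Itga9 stood at -0.74 and Itgb1 at -0.09, and for the collagen receptors Itga10 at 0.61 and Itga11 at 1.20 with the same Itgb1. Itga5 at 0.11 and Itga1 at -0.01, neither called, also pair with Itgb1. Both subunit genes of the Itgav and Itgb8 pair were lower (-0.40 and -0.85), while Itgb5, another partner of Itgav, stood at 0.35 and was not called. Both of Mac-1 were higher (Itgam 1.63, Itgb2 1.20). In the platelet receptor Itga2b stood at 0.78 and Itgb3 at -0.07. Differences between the subunits of a pair were not tested.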

How the data were processed

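Each library has 1 deposited file of unnormalised counts, whole reads assigned to each gene symbol, laid out as HTSeq writes them. Per the submitters' processing notes, the genome build was mm10 and the tools included HTSeq 0.6.0, STAR 2.5.0c and DESeq2 1.10.0, whose roles are not described. The gene annotation, and the strand option of the counting, were not given in the sources used here. HTSeq's 5 summary lines were left out of library sizes: unaligned reads took 20.4% to 42.9% of a library and reads with more than 1 alignment 5.27% to 6.26%.

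Genes passed filterByExpr (minimum count 10, minimum total 15), were scaled by TMM and tested in R 4.3.3 with edgeR 4.0.16 (robust glmQLFit, glmQLFTest, group as the only term, two-sided), with Benjamini-Hochberg adjustment over all 16198 genes. CPM uses TMM-scaled library sizes, and each SE was taken from the unshrunken coefficient and its F value. The scripts were tested on simulated data. Positions, exon unions and shared bases come from GENCODE M21 (GRCm38, the build named mm10), where all 39 genes matched, and per-kilobase levels depend on that annotation. No pair of replicates agreed within counting noise (chi-square over degrees of freedom 14.8 to 50.5). The limit of 3 reads covers counting error only, while each SE and SD includes spread between libraries.

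The members and lists were chosen with earlier results of these data known. All members are named. From the 2 pathway lists up to 8 called genes with the smallest p are taken, and from each of the 11 marker lists the 2 with the highest mean, except 1 marker list that is not reported here. Alternatives changed the scaling (DESeq2 size factors, or totals only), the test (DESeq2 1.42.0, or voom in limma 3.58.1), the filter (none, or a minimum of 5 CPM in 3 libraries), the robust option and the model (the replicate number as a block, or Y-linked reads present or not), or left out each library.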

Additional observations from a re-analysis of the deposited data

How the results depend on the processing

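The count of integrin and focal adhesion genes called higher (10) ranged from 6 to 10 with 1 library left out, and was 6 without IgG replicate 2. The count called lower (8) ranged from 3 to 6 with 1 library left out (3 without IgG replicate 2, 4 without IgG replicate 3, 5 without IgG replicate 1 or 5E1 replicate 1 or 3), and was 5 with DESeq2 size factors, 5 with presence of Y-linked reads in the model and 5 with the replicate block. The block ended the calls of Vcl, Lims1 and Pxn (adjusted p 0.0855, 0.0891 and 0.0886) and changed no other of these genes' calls. Whether libraries with the same replicate number are related is not stated. Their deviations from the group means correlated at -0.11, -0.04 and -0.09. With 3 libraries per group, these correlations cannot show whether a pairing exists. Other focal adhesion genes kept counts within 1.5 times of 6 higher and 16 lower. Integrin ligand genes called higher (10) numbered 17 by the DESeq2 test, 19 when low counts were kept and 6 to 14 with 1 library left out (6 without IgG replicate 2). Over all genes tested, 1966 were called higher and 1791 lower, against 1312 and 3274 when scaled by totals only and 1221 and 1084 without IgG replicate 2. The cause was not tested, beyond the fewer samples when a library is left out. Of 803 values of 54 named genes over the 15 alternatives, 730 kept sign and side of the threshold, 52 lost the call, 12 gained one and 9 changed sign, all 9 for genes near 0 that were not called: Itga5 at -0.032 and Tns3 at -0.13 when scaled by totals only, Itga1 at 0.020 with the stricter filter, and with 1 library left out Itga1 (lowest -0.11, highest 0.074), Zyx (lowest -0.17, highest 0.074) and Tns3 (lowest -0.072, highest 0.16). Genes with few reads, such as Itgae, Itgb6 and Ilk, are limited by depth.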
